A study of Mus musculus with 6 samples.

Results

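The deposited comparison of MLE-12 cells lists 18021 transcripts, and 722 of them (4.01%) carry the annotation label nonsense-mediated decay (NMD). All rows with that label were taken. The 722 transcripts belong to 634 genes, of which 567 have a single such transcript and 67 have at least 2. Poly(A) RNA was sequenced from 3 libraries per group: cells given 10 µM dexmedetomidine, an agonist of α2-adrenergic receptors, for 12 h before hypoxia (I/R + Dex), and cells without it (I/R). Both groups then spent 12 h in 1% oxygen and 4 h in normoxia. The genotype of all 6 libraries is labelled wild type. MLE-12 is a mouse lung epithelial line from a tumour driven by SV40 large T antigen under the surfactant protein C promoter. Both groups carry the label of this transformed line.

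NMD is a surveillance pathway that degrades mRNAs on which translation ends too early. A splice junction downstream of the stop codon marks the mRNA, because the exon junction complex left there by splicing stays bound and recruits UPF2 and UPF3 to UPF1, which SMG1 phosphorylates and SMG5 and SMG6 link to decay. Many genes of splicing factors, the SR and hnRNP proteins above all, make such transcripts on purpose by including a "poison" exon with a stop codon or by splicing in the 3' part of the gene, and so limit their own output. An NMD transcript still present in a cell has escaped decay or awaits it. The label comes from the annotated reading frame, not from a measured decay rate.

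The early stop can be read in the transcripts themselves. Below are the last 60 coding bases of the 4 NMD transcripts that moved relative to their genes (Trim62, Son, Creb1 and Washc4), of the SR-related pair Tra2b and Tra2a, of Taf1, which was present or absent by library, and of Ddx5, the transcript with the most counts. The stop codon is in capitals. Sequences are GENCODE vM21 transcripts (models on GRCm38) with the same identifier and length as in the deposited table, read on the transcribed strand.
Trim62: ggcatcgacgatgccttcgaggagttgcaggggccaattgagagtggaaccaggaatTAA
Son: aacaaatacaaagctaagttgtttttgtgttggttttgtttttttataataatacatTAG
Creb1: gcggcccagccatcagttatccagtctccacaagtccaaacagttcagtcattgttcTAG
Washc4: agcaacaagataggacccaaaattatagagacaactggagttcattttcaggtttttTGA
Tra2b: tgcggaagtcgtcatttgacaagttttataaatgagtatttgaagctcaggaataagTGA
Tra2a: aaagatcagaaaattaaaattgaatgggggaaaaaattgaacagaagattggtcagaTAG
Taf1: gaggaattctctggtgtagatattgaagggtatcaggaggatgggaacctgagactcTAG
Ddx5: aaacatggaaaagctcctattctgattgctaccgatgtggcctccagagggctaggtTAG

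In Trim62 the stop lies in exon 2 of 6, 30 coding bases into an exon that overlaps no exon of a coding transcript of the gene, and 4 splice junctions follow it. In Creb1 it lies 12 coding bases into exon 4 of 10, and in Tra2b and Tra2a it lies in exon 2 of 10 and exon 2 of 9, again in exons that no coding transcript overlaps. Washc4 stops in exon 9 of 33 and Son in exon 6 of 11. Ddx5 differs: its stop is in exon 11 of 12, 1485 bases before the only junction that follows.

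The same layout held for nearly all of the set. Of the 722 transcripts, 707 have a model of the same length and label in GENCODE vM21, and 705 of these stop at least 50 bases before their last junction. The label itself rests on that distance, so this is a check of the models and not a finding. The median distance was 544 bases (quartiles 226.5 and 1255), with a median of 3 junctions after the stop. Among the 684 with a coding transcript in the same gene, 73 share their stop codon with it and 611 do not. In 193 the stop sits in an inner exon that no coding transcript of the gene overlaps, the layout of a poison exon. The stop codon was TGA in 54.2% of the 707, TAA in 23.5% and TAG in 22.3%, beside 49.4%, 27.8% and 22.8% of 47808 coding models.

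Most of each sequence is shared with other transcripts. The median NMD transcript had 98.3% of its bases inside exons of another transcript of its gene and 42 bases of its own, and 285 of the 707 had no base of their own. The sources used here do not say how reads were divided between transcripts of a gene, so a count for an NMD transcript is an assignment within a gene and depends on that step. In addition, 69 transcripts share exon bases with another gene on the same strand and 165 with a gene on the opposite strand, and the sources do not say whether counting used strand.

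Library totals were 2586743, 2333546 and 2420782 counts in I/R + Dex and 2607952, 2941989 and 2609058 counts in I/R. The markers mostly did not match the epithelial label of the cells. Of 15 epithelial and alveolar type II markers, 9 were at 0 in all 6 libraries, among them Krt8, Krt18, Sftpc and Nkx2-1. The 15 summed to 4.71 to 18.6 CPM (counts scaled to a common library total) in I/R + Dex and 9.86 to 21.9 CPM in I/R. The 9 mesenchymal markers summed to 1620 to 1938 CPM in I/R + Dex and 1818 to 1872 CPM in I/R. Leukocyte markers summed to 23.1 to 29.4 CPM in I/R + Dex and 18.8 to 26.8 CPM in I/R, and endothelial markers to 5.78 to 10.3 CPM in I/R + Dex and 2.3 to 4.22 CPM in I/R. The part of these cell markers in the results below was not tested. In bulk RNA, fewer cells of a type and less RNA per cell cannot be told apart.

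As a class, NMD transcripts took about the same part of the RNA in both groups. They held 1.77%, 1.84% and 2.04% of all counts in the 3 I/R + Dex libraries, and 1.91%, 2.04% and 1.81% in the 3 I/R libraries. The means were 1.89% ± 0.141 in I/R + Dex and 1.92% ± 0.116 in I/R (SD, n = 3 each), a difference of -0.0325 percentage points (two-sided exact permutation test, p = 0.8). Of the counts of their own 634 genes they held 13.4%, 14.0% and 15.4% in I/R + Dex and 14.7%, 15.5% and 13.5% in I/R, with means of 14.3% ± 1.01 and 14.6% ± 0.968 and a difference of -0.289 points (exact permutation test, p = 0.7). With 3 libraries a group this test cannot go below 0.1, so a change of the class could not have passed a threshold of 0.05. The groups overlapped in both measures, and the sign of both differences turned when some single libraries were left out.

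**Figure D1:**
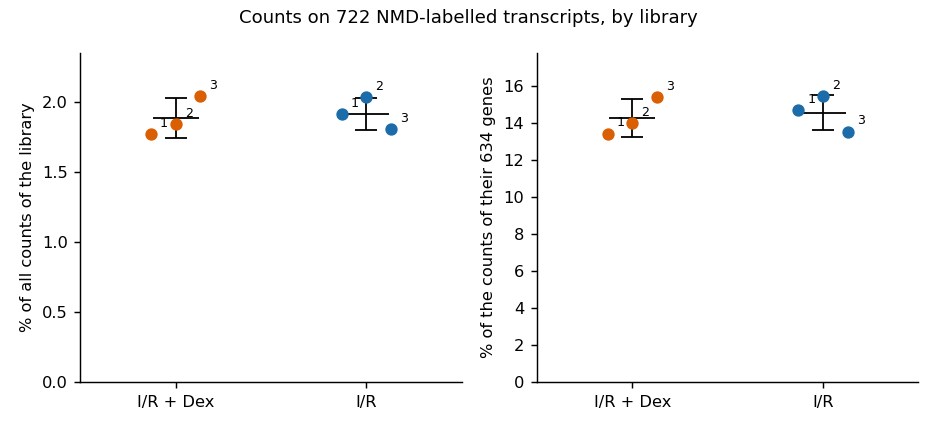
Percent of all counts of a library (left panel) and percent of the counts of their 634 genes (right panel) on the 722 NMD transcripts. Each numbered point is 1 library, bars are mean ± SD over 3 libraries, and the I/R + Dex and I/R libraries overlap in both panels (means 1.89% and 1.92% of all counts).

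Detection was alike as well. Of the 722 transcripts, 549, 547 and 541 had a count in the I/R + Dex libraries and 563, 561 and 538 in the I/R libraries. The median transcript had a mean count of 12.7, 319 had a mean under 10, and 438 were at 0 in at least 1 library. A few dominated: 10 transcripts held 31.9% of all NMD counts, and Ddx5 alone held 14.8%. Counts grow with transcript length, so this order is one of counts and not of molecules.

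Within their genes the NMD transcripts ran from traces to the only transcript counted. In the 523 whose gene had a mean of at least 30 counts, the median share of the gene was 8.89% (quartiles 2.42% and 43.2%). The share was under 5% in 208, between 5% and 50% in 198 and over 50% in 117. In 28 of them every count of the gene in every library was assigned to the NMD transcript. Among these were Rnf115, an E3 ubiquitin ligase, with 485, 416 and 456 counts in I/R + Dex and 454, 553 and 474 in I/R, and Ppt1, the lysosomal palmitoyl-protein thioesterase, with 194, 120 and 122 counts in I/R + Dex and 104, 168 and 106 in I/R. Qser1, B4galt2, a galactosyltransferase, and Gm38431 were also at 100% in all 6 libraries. Gm38431 shares 62.8% of its bases with Raver1 on the same strand, so its counts are uncertain. Transcripts that keep the stop codon of a coding transcript had a median share of 11% (50 transcripts) and those with a stop of their own 8.14% (455 transcripts). That difference was not tested.

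The abundant NMD transcripts differed little between the groups. Ddx5 encodes a DEAD-box RNA helicase of splicing and transcription, and its NMD transcript (ENSMUST00000133426, GRCm39 chr11:106672374-106679320, minus strand) had 7110, 6373 and 7374 counts in I/R + Dex and 7420, 9096 and 6324 in I/R. That was 31.4% ± 1.33 of the gene in I/R + Dex and 32.4% ± 2.56 in I/R, with a log2 fold change of 0.03 ± 0.10 (SE). Cnot2, a subunit of the CCR4-NOT deadenylase, had an equally steady NMD transcript, at 82.3% ± 0.257 of its gene in I/R + Dex and 82.1% ± 3.71 in I/R. Luc7l2, a U1 snRNP-associated splicing factor, was at 79.9% ± 8.53 in I/R + Dex and 78.0% ± 9.74 in I/R.

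Other abundant ones moved widely among libraries of the same group. Qki, an RNA-binding protein of the STAR family, had an NMD transcript at 37.7%, 23.2% and 64.1% of its gene in I/R + Dex and 48.3%, 72.4% and 29.5% in I/R. For Eif4a1, the DEAD-box helicase of translation initiation, the NMD transcript had 1544, 115 and 771 counts in I/R + Dex and 145, 1082 and 867 in I/R, out of 2277 to 3554 counts of the gene. Dnajc7, a co-chaperone, was at 36.2%, 57.0% and 38.2% in I/R + Dex and 27.5%, 66.7% and 48.0% in I/R. In all 3 the groups overlapped over most of their range. Hnrnpu, a nuclear matrix RNA-binding protein, was steady at 17.3%, 13.9% and 13.7% in I/R + Dex and at 18% and 18.1% in the first 2 I/R libraries, and then had 2 counts of 8036 in the last I/R library.

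Ramp2, a receptor activity-modifying protein that partners the calcitonin receptor-like receptor, was counted almost wholly as its NMD transcript: 211, 948 and 296 counts in I/R + Dex, against 1249, 1182 and 1105 in I/R. In CPM the second I/R + Dex library lay within the range of I/R and the other 2 lay below it, and the log2 fold change was -1.09 ± 0.64 (SE; edgeR quasi-likelihood test, unadjusted p = 0.148). This transcript shares 74.6% of its bases with the neighbouring gene Vps25, an ESCRT-II subunit, on the same strand. Vps25 had 810, 3 and 935 counts in I/R + Dex and 8, 4 and 4 in I/R, so it was high in the same 2 libraries in which Ramp2 was low. The part of that overlap in the counts of Ramp2 was not tested.

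Counts of single NMD transcripts were compared between groups with edgeR on the whole transcript table. Of the 722, 368 passed its filter on low counts and 0 passed an adjusted p of 0.05, as was so for all 9882 transcripts tested (0%). At an unadjusted p under 0.05 there were 13 NMD transcripts (3.53%), 9 higher and 4 lower in I/R + Dex, against 2.92% of all transcripts tested (1.49% higher and 1.44% lower). Over the 368 tested NMD transcripts the median log2 fold change was 0.03, beside 0.00 over all transcripts tested. DESeq2 on the same counts called 7 (1.90%), 5 higher and 2 lower, against 1.36% of all tested (0.658% higher and 0.698% lower). At an unadjusted p under 0.05 DESeq2 had 24 (6.52%, against 5.81%). By the bare criterion that the CPM of the groups did not overlap, 60 of 722 stood apart (8.31%), 31 higher and 29 lower, against 8.95% of all listed transcripts (4.57% higher and 4.38% lower). Both shares lay near the background.

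The share test asks whether a transcript changed relative to the rest of its gene. edgeR's diffSpliceDGE could test 259 of the NMD transcripts and called 4 at an adjusted p under 0.05 (1.54%), against 36 of 4473 transcripts tested (0.805%; 0.425% higher and 0.38% lower). At an unadjusted p under 0.05 there were 7 (2.7%, against 2.5%). Trim62 and Son were higher in I/R + Dex, and Creb1 and Washc4 were lower. In each of them 1 group was at or next to 0 counts.

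Trim62 encodes a tripartite-motif E3 ubiquitin ligase. Its NMD transcript (ENSMUST00000147852, GRCm39 chr4:128777373-128797358, plus strand) had 18, 16 and 49 counts in I/R + Dex, against 0 in all 3 I/R libraries. These were all the counts of the gene in I/R + Dex, while in I/R all 27, 23 and 23 counts went to a coding transcript that had 0 in I/R + Dex. So the gene total did not differ beyond its error (log2 fold change 0.34 ± 0.49 SE) and the assignment within the gene turned over completely (adjusted p = 0.0385, edgeR). At least 10.3-fold more was counted in I/R + Dex, taking 3 counts per library as the floor. With so few counts, 0 in an I/R library still allows a share of up to 11.1% to 13%, and the call was lost when any 1 of the 6 libraries was left out (adjusted p 0.0568 to 0.143), with no filter on low counts (0.209) and with a minimum mean of 10 counts (0.0792). Of its bases, 1263 of 2722 lie in no other transcript of the gene.

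Son encodes a large SR-related protein of nuclear speckles that is needed for splicing of weak introns. Its NMD transcript (ENSMUST00000147891, GRCm39 chr16:91456831-91476080, plus strand) had 140, 147 and 132 counts in I/R + Dex, against 0 in each I/R library. That was 11.4%, 6.35% and 5.51% of the gene in I/R + Dex, and 0 of 2300 to 2878 gene counts in I/R, which allows up to 0.104% to 0.130%. This was a difference of at least 51.7-fold (share test, adjusted p = 0.0018, edgeR). The gene total was 1224, 2314 and 2394 counts in I/R + Dex and 2300, 2878 and 2530 in I/R (log2 fold change -0.20 ± 0.28 SE). The call was lost when any 1 of the I/R + Dex libraries was left out (adjusted p up to 0.0723) and held without each I/R library. It was also lost with no filter on low counts (adjusted p = 0.157) and with a minimum mean of 10 counts (0.22). The reference start of this reading frame is incomplete, and 103 of its bases lie opposite the gene Donson.

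Creb1 encodes the cAMP-responsive transcription factor CREB. Its NMD transcript (ENSMUST00000190876, GRCm39 chr1:64572018-64636626, plus strand) had 1, 0 and 0 counts in I/R + Dex, against 168, 156 and 218 in I/R. It made up 0.242%, 0% and 0% of the gene in I/R + Dex and 41.9%, 47.9% and 57.4% in I/R. The ratio of summed counts, scaled to library size, was 0.00205 (I/R + Dex over I/R; 95% exact interval 5.18e-05 to 0.0115, counting error only). The share test gave an adjusted p of 0.00254 (edgeR), and the call held when each of the 6 libraries was left out in turn. A coding transcript of the gene ran the other way, with 69, 135 and 93 counts in I/R + Dex and 14, 17 and 13 in I/R, and the gene total did not differ beyond its error (log2 fold change 0.04 ± 0.21 SE).

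Washc4 encodes a subunit of the WASH complex, which makes branched actin on endosomes. Its NMD transcript (ENSMUST00000217842, GRCm39 chr10:83379616-83431298, plus strand) had 0 counts in all I/R + Dex libraries, against 23, 89 and 67 in I/R. Its share of the gene was 0% in I/R + Dex and 9.02%, 22.4% and 20.3% in I/R. In CPM, and not in share, the transcript was at least 17.6-fold lower in I/R + Dex, taking 3 counts per library as the floor. The share test gave an adjusted p of 0.006 (edgeR). That call was lost without I/R library 3 (adjusted p = 0.0633) and with no filter on low counts (0.0921). No other transcript of the gene ran the other way, and the gene total was 238, 181 and 214 counts in I/R + Dex and 255, 398 and 330 in I/R (log2 fold change -0.48 ± 0.15 SE, not past the adjusted threshold).

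The other share test run did not make these 4 calls. limma's diffSplice on the same counts called 0 of the 259 NMD transcripts (22, or 8.49%, at an unadjusted p under 0.05, against 7.96% of all tested), against 12 of 4473 tested (0.268%). Its adjusted p was 0.0990 for Trim62, 0.997 for Son, 0.483 for Creb1 and 0.491 for Washc4. DESeq2, which compared counts and not shares, called all 4 (adjusted p 4.53e-05 for Trim62, 2.74e-13 for Son, 2.04e-10 for Creb1 and 1.25e-06 for Washc4). The edgeR count test called none of them. By non-overlap of the shares, 40 of 516 NMD transcripts stood apart (7.75%), against 7.24% of all listed transcripts of genes with a mean of at least 30 counts.

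The authors' deposited table marks 7 NMD transcripts as significant (0.970%), against 104 of all 18021 (0.577%). They are the 4 above with Gm21988 on the higher side and Taf1d and Cfl2 on the lower side. Gm21988 is a predicted gene of unknown product, and its NMD transcript had 194, 203 and 210 counts in I/R + Dex, against 0 in each I/R library, a difference of at least 74.9-fold. In the authors' deposited table its log2 fold change was 12.31, and the edgeR count test gave an adjusted p of 0.0752. In I/R + Dex it held 100%, 100% and 95.9% of the gene, and the gene total differed with it (log2 fold change 5.69 ± 0.61 SE, adjusted p = 0.0538, edgeR). It shares 51.8% of its bases with 0610010K14Rik and 35.3% with Rnasek on the same strand. Rnasek had 77, 25 and 35 counts in I/R + Dex and 257, 261 and 259 in I/R, and the part of this overlap in the counts of Gm21988 was not tested.

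Taf1d is a subunit of the RNA polymerase I factor SL1. Its NMD transcript had 0, 1 and 0 counts in I/R + Dex, against 14, 14 and 9 in I/R, a ratio of 0.03 (95% exact interval 0.000741 to 0.178, counting error only). Cfl2 encodes the muscle-type cofilin, an actin-severing protein, and its NMD transcript had 0 counts in I/R + Dex, against 7, 20 and 10 in I/R, or 1.08%, 2.60% and 1.49% of the gene. Both were below the filter of the edgeR tests. The groups did not overlap in any of the 7, while 8.95% of all listed transcripts were apart in CPM. The 7 were marked from these same libraries, so their non-overlap adds no support.

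**Figure D2:**
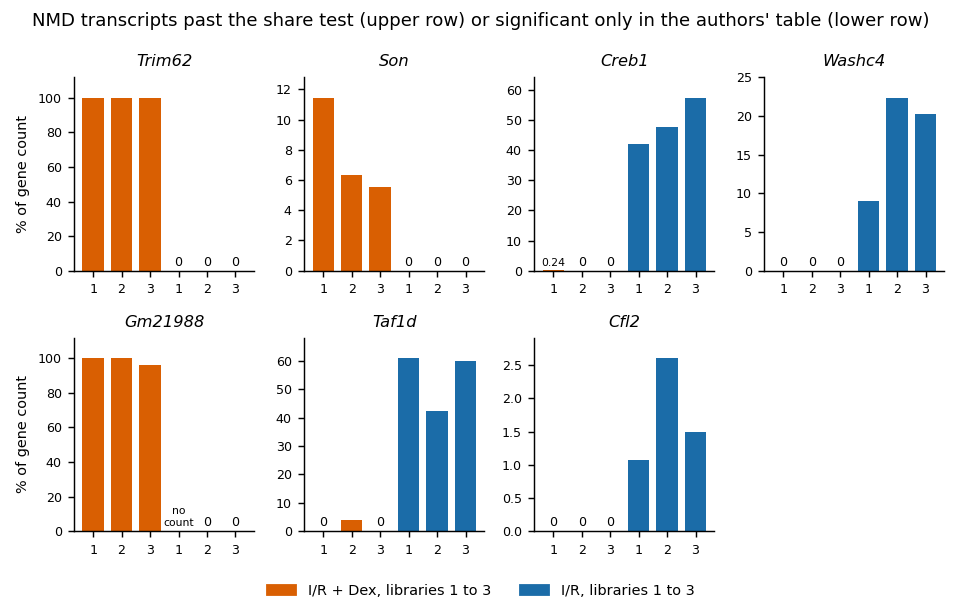
Share of the gene count (%, vertical axes with their own scale) held by the NMD transcript in each library, I/R + Dex left and I/R right, for the 4 transcripts past the edgeR share test (upper row) and the 3 others marked in the authors' deposited table (lower row). A 0 marks a library with no count on the transcript and "no count" 1 with none on the gene; in every panel 1 group had at most 1 count on the transcript in any library, such as Creb1 with at most 0.242% in I/R + Dex and at least 41.9% in I/R.

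Some NMD transcripts with a low unadjusted p held all or nearly all of the count of their gene in most libraries. Cabyr, a calcium-binding protein of the sperm tail, is counted only as its NMD transcript and had 23, 28 and 22 counts in I/R + Dex, against 9, 11 and 9 in I/R (log2 fold change 1.49 ± 0.34 SE). Grik5, a kainate receptor subunit, had 577, 532 and 546 counts in I/R + Dex, against 482, 559 and 415 in I/R (0.34 ± 0.10 SE). Supt20, a SAGA complex subunit, had 79, 69 and 78 counts in I/R + Dex, against 48, 57 and 37 in I/R (0.83 ± 0.23 SE), and held 51.4% of the gene in the last I/R library. Tbc1d22b, a Rab GTPase-activating protein, had 53, 46 and 35 counts in I/R + Dex, against 16, 30 and 10 in I/R (1.43 ± 0.45 SE). In CPM the groups did not overlap in these 4, which was a condition of naming them (8.95% of all listed transcripts met it). In edgeR none passed the adjusted threshold, and DESeq2 called Cabyr and Supt20. As genes, 505 of the 634 could be tested: 0 were past an adjusted p of 0.05, against 5 of 7412 genes (0.0675%), and 18 had an unadjusted p under 0.05 (3.56%, against 3.39%). DESeq2 called 1, Gm21988 (0.198%, against 0.216% of all genes tested).

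Chka, choline kinase α, carries a pair of NMD transcripts that ran in opposite directions. One (ENSMUST00000128694) held 79.6%, 85.9% and 95.7% of the gene in I/R + Dex and 31.0%, 0% and 35.1% in I/R. The other (ENSMUST00000153343) held 0%, 8.59% and 0% in I/R + Dex and 64.3%, 62.3% and 63.1% in I/R. In both the groups were apart, while the gene total had a log2 fold change of 0.05 ± 0.16 (SE). The share test gave unadjusted p of 0.248 and 0.0273 (edgeR), and neither passed the adjusted threshold.

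Other NMD transcripts differed in counts or share without passing a threshold. Those named here were lower in I/R + Dex, except Usp7, which had a larger share there. Thrap3, a subunit of transcription and splicing complexes, had 21, 34 and 43 counts in I/R + Dex, against 84, 96 and 54 in I/R (log2 fold change -1.08 ± 0.39 SE). Smurf2, a HECT-type E3 ubiquitin ligase of TGF-β signalling, had 34, 43 and 43 counts in I/R + Dex, against 67, 69 and 62 in I/R (-0.56 ± 0.24 SE). Thoc2, the scaffold of the THO mRNA export complex, had 53, 61 and 59 counts in I/R + Dex, against 115, 82 and 84 in I/R (-0.55 ± 0.26 SE). In these 3 the groups did not overlap in CPM, which was a condition of naming them, and none passed the adjusted threshold in edgeR. Wiz, a zinc-finger partner of the G9a methyltransferase, had 65, 87 and 70 counts in I/R + Dex, against 106, 135 and 111 in I/R (-0.49 ± 0.23 SE), and 31.7% of its bases lie opposite another gene. Tars, a threonyl-tRNA synthetase, differed in share alone, at 30.9%, 23.7% and 32.1% in I/R + Dex, against 58.5%, 47.9% and 69.2% in I/R. Usp7, a deubiquitinase that acts on MDM2, was at 1.5%, 1.08% and 2.02% in I/R + Dex, against 0.755%, 0.826% and 0.314% in I/R, and neither Tars nor Usp7 passed the share test of edgeR.

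SR proteins and their relatives bind exonic enhancers and recruit the spliceosome, and their own genes are the classic hosts of poison exons. Of 28 genes in that list, 20 carried 24 NMD transcripts, with a median share of 4.29% of the gene. In the count test 3 of the 17 tested had an unadjusted p under 0.05 (Son, Tra2b and Arglu1, all higher in I/R + Dex; 2.92% of all transcripts tested had such a p, and 1.49% were higher), 0 passed the adjusted threshold, and 6 of the 24 had groups that did not overlap (against 8.95% of all listed transcripts). The 25 tested SR genes had a median log2 fold change of 0.00 as totals, with 0 calls (against 0.0675% of all genes tested).

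Tra2b, a sequence-specific activator of splicing, includes a conserved poison exon by its own protein. Its NMD transcript had 25, 287 and 26 counts in I/R + Dex, against 7, 12 and 11 in I/R, or 3.12%, 44.2% and 4.21% of the gene in I/R + Dex and 0.885%, 1.43% and 1.39% in I/R. The groups did not overlap, but most of the difference came from I/R + Dex library 2, in which the main coding transcript had 313 counts beside 704 and 582 in the other I/R + Dex libraries and 712 to 780 in I/R. The share test gave an unadjusted p of 0.00225 (adjusted 0.24, edgeR). Its paralogue Tra2a kept a high and even share, 40.3%, 52.9% and 49.1% in I/R + Dex and 39.5%, 48.9% and 41.2% in I/R.

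Arglu1, an arginine- and glutamate-rich splicing coactivator, had 43, 57 and 175 counts on its NMD transcript in I/R + Dex, against 32, 31 and 29 in I/R, out of 1428 to 1761 gene counts. Srsf1, the founding SR protein, had 2.25%, 2.07% and 1.70% of the gene on its NMD transcript in I/R + Dex, against 2.93%, 3.39% and 2.98% in I/R. Its counts had a log2 fold change of -0.54 ± 0.27 (SE; unadjusted p = 0.102, edgeR). Srsf2, another SR protein, was at 3.58%, 3.61% and 0.230% in I/R + Dex, against 4.26%, 4.05% and 4.30% in I/R. The groups did not overlap in either gene, and apart from I/R + Dex library 3, the Srsf2 libraries lay within 1 percentage point of each other. The Srsf2 transcript lies across from Mettl23 for 72.3% of its bases.

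hnRNP proteins package nascent RNA and often oppose SR proteins. In the list of 28, 10 genes carried 17 NMD transcripts with a median share of 3.66%, and 1 of the 17, Ptbp2, had groups that did not overlap (against 8.95% of all listed transcripts). Ptbp2, the neuronal paralogue of the polypyrimidine tract-binding protein, had 10.1%, 9.17% and 8.18% on its NMD transcript in I/R + Dex, against 1.69%, 4.10% and 0.787% in I/R, on 11 to 13 counts in I/R + Dex and 1 to 8 in I/R. One NMD transcript of Hnrnpa1 varied widely in both groups, at 30.5%, 80.9% and 72.0% in I/R + Dex and 95.7%, 29.5% and 23.1% in I/R. The more abundant NMD transcript of Hnrnpa2b1 was at 3.59% ± 1.16 in I/R + Dex and 4.20% ± 1.16 in I/R.

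The other lists gave no call. Spliceosome genes carried 15 NMD transcripts, other RNA-binding proteins 24, translation factors 9, cytosolic ribosomal proteins 6, proteasome and ubiquitin genes 6, and decapping, deadenylation and exonuclease genes 7. Of these 67 transcripts 39 could be tested, and 0 had an unadjusted p under 0.05 in the edgeR count test, against 2.92% of all tested. Eif4a2, a paralogue of Eif4a1, had 17.8%, 18.7% and 27.4% of the gene on its main NMD transcript in I/R + Dex, against 14.9%, 0% and 4.17% in I/R. The groups did not overlap, and the share test gave an unadjusted p of 0.0837 (edgeR). Its 3 NMD transcripts together held 44.5%, 30.1% and 27.4% in I/R + Dex, against 14.9%, 0% and 4.17% in I/R. One of them (ENSMUST00000131871), with 332, 77 and 0 counts in I/R + Dex and 0 in each I/R library, was called by the share test with no filter on low counts. Rbm39, a splicing factor with 5 NMD transcripts, the most of any gene, had 9.35%, 3.61% and 9.94% of its counts on them in I/R + Dex, against 7.06%, 4.14% and 4.74% in I/R. Tial1, Tardbp, Dmtf1 and Crebzf were among the genes that carried 4. For Tardbp, which encodes the RNA-binding protein TDP-43 and limits itself through its 3' end, their sum was 162, 293 and 112 of 321, 507 and 498 gene counts in I/R + Dex, and 274, 73 and 342 of 787, 243 and 875 gene counts in I/R. For Rps19, a small-subunit ribosomal protein, the share was 4.04%, 5.80% and 6.69% in I/R + Dex and 4.75%, 6.12% and 8.32% in I/R, with both groups over the same range. Rps13, from the same subunit, had 2, 95 and 44 counts in I/R + Dex and 0, 50 and 0 in I/R. Psmc3, an ATPase of the 26S proteasome, had 96, 0 and 52 counts in I/R + Dex and 213, 70 and 330 in I/R, again with overlap. Dhx9, an RNA helicase, held 6.88%, 9.66% and 17% in I/R + Dex and 14.5%, 17.5% and 11.9% in I/R.

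The share of an NMD transcript often varied among libraries of the same group. In 392 whose gene had a mean of at least 100 counts and at least 2 listed transcripts, the median range of the share over 3 libraries was 5.32 percentage points within I/R + Dex and 5.03 within I/R, while the median size of the difference of group means was 2.04 points. The range was over 20 points in 79 transcripts within I/R + Dex and 80 within I/R, while 32 differed by over 20 points between group means. A difference of 2 means of 3 varies less than a range of 3, so such a gap arises with no difference between groups. These measures therefore cannot say whether the spread within groups exceeded that between them.

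**Figure D3:**
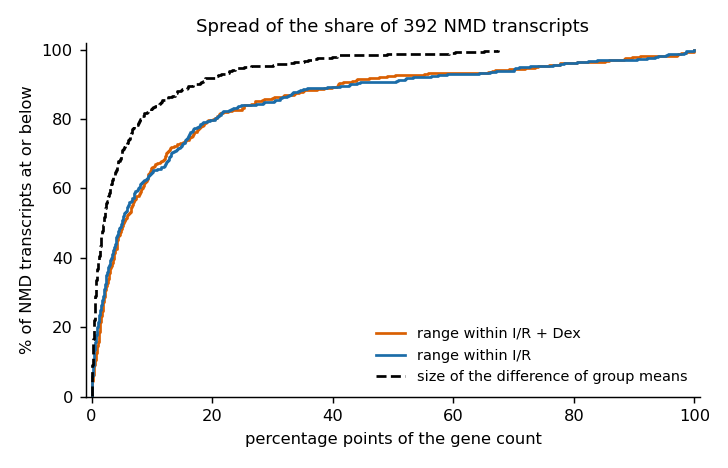
Cumulative percent of the 392 NMD transcripts (vertical axis) with a range of the share within I/R + Dex, a range within I/R, or a difference of group means at or below the value on the horizontal axis (percentage points of the gene count). The curves of the 2 ranges lie on each other, with medians of 5.32 and 5.03 points, and the curve of differences lies to their left, with a median of 2.04.

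A count that switched on and off within a group was common. Of the 288 among these 392 transcripts that reached 20 counts in some library, 125 (43.4%) had 0 in 1 library and at least 20 in another of the same group, 79 within I/R + Dex and 76 within I/R. A complete switch between the groups, with 0 in all libraries of 1 group and at least 20 in all of the other, was seen in 2 of the 288 (0.694%), Son and Washc4. Gm21988 met the same terms but lies outside the 392, because its gene had no count in 1 I/R library and so no share there. A switch within a group needs only 2 libraries to meet a limit and a complete switch needs all 6. The frequencies of these switches are therefore not comparable. The libraries contributed alike: each of the 6 was at 0 for 42 to 50 of the switching transcripts. The same count gave 409 of 1329 retained-intron transcripts (30.8%; 2 between groups) and 852 of 3245 coding transcripts (26.3%; 10 between groups). The difference between these classes was not tested. With a limit of 10 or 50 counts in place of 20, chosen after the data were seen, 166 of 339 and 71 of 201 NMD transcripts switched within a group, and 2 and 1 between groups.

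Gene totals in libraries with and without a switching transcript were mostly close. Over the 155 pairs of a switching transcript and a group, the total of the gene in libraries at 0 differed from that in libraries at 20 or more counts by a median log2 ratio of 0.03 (10th and 90th percentiles -0.37 and 0.41), and 142 pairs (91.6%) were within 1.5-fold. No matching figure is given for genes of transcripts that did not switch, so this closeness cannot be called particular to switching. Switching transcripts had a median of 0 bases outside other transcripts of their gene, and the others that reached 20 counts had 5. That difference, and the cause of the switching, was not tested.

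Taf1, the largest subunit of TFIID, shows the pattern. Its NMD transcript had 343, 274 and 280 counts in I/R + Dex and 361, 383 and 0 in I/R, while a coding transcript had 10, 0 and 0 in I/R + Dex and 0, 0 and 378 in I/R. In the NMD model 83 of 7331 bases lie in no other transcript of the gene. For Sympk, the scaffold symplekin of 3' end processing, the NMD transcript had 0, 386 and 402 counts in I/R + Dex and 567, 497 and 440 in I/R, and the coding transcript took all 428 counts of the gene in the first I/R + Dex library. For Dab2ip, a Ras GTPase-activating protein, the NMD transcript was at 0 in 1 library of each group, with 0, 184 and 280 counts in I/R + Dex and 279, 303 and 0 in I/R.

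Khdrbs1 (Sam68) is a signal-regulated splicing factor. Its NMD transcript was at 0 in the first library of both groups, with 0, 396 and 436 counts in I/R + Dex, and 0, 403 and 424 in I/R. There were 1123 and 1183 counts on the coding transcript in these 2 libraries. Snrpb, a core protein of spliceosomal snRNPs that is known to regulate itself through a poison exon, had 3, 452 and 3 counts in I/R + Dex and 384, 8 and 13 in I/R. The coding transcript of Snrpb had 603, 0 and 463 counts in I/R + Dex and 110, 650 and 620 in I/R. The groups overlapped in Taf1, Dab2ip, Khdrbs1 and Snrpb. In Sympk the I/R + Dex libraries lay below I/R in CPM by a narrow margin, and the shares of the gene overlapped.

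**Figure D4:**
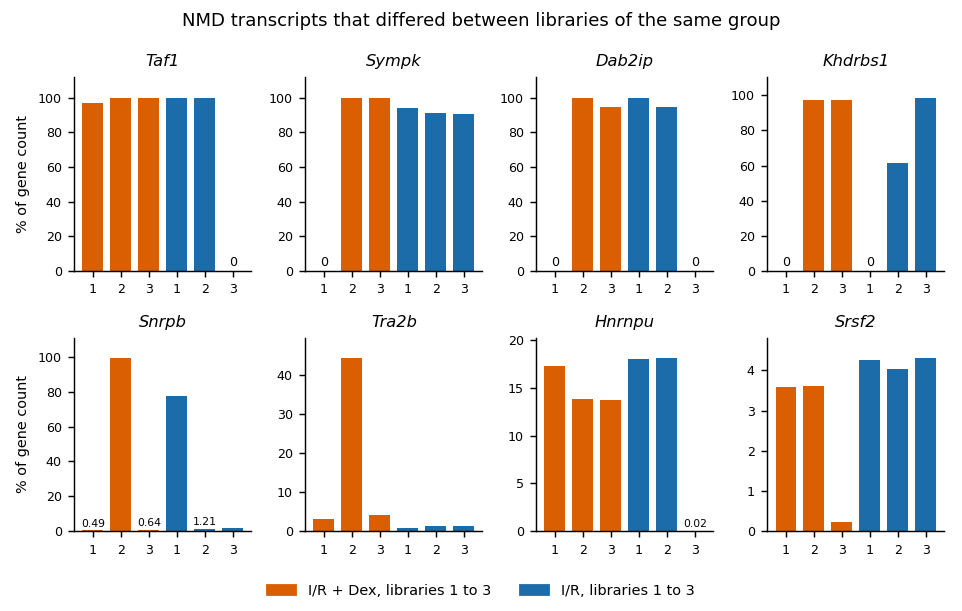
Share of the gene count (%, vertical axes with their own scale) held by the NMD transcript in each library, I/R + Dex left and I/R right, for 8 genes named in the text. Single libraries stand apart inside a group, such as I/R library 3 at 0% of Taf1, I/R + Dex library 2 at 44.2% of Tra2b and I/R + Dex library 3 at 0.230% of Srsf2.

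No difference between groups was called in the core genes of NMD. Of 10 core factors, 8 could be tested, with a median log2 fold change of -0.07. Of the 8, 0 passed an adjusted p of 0.05 and 0 an unadjusted p of 0.05 (edgeR). Among all genes tested 0.0675% and 3.39% did. With so few genes, 0 calls lay near that background, and equality of the groups was not tested. Upf1, the helicase at the centre of the pathway, had 145, 64 and 161 counts in I/R + Dex and 174, 163 and 189 in I/R (log2 fold change -0.37 ± 0.31 SE). Smg1, its kinase, had 842 ± 33.4 CPM in I/R + Dex and 819 ± 50.7 CPM in I/R (SD, n = 3 each), or 0.05 ± 0.07 on the log2 scale (SE). Upf2, Upf3b, Smg5, Smg6 and Smg8 lay between -0.22 and 0.15 on the log2 scale, and Upf3a and Smg9 had at most 14 counts in any library and were not tested.

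**Figure D5:**
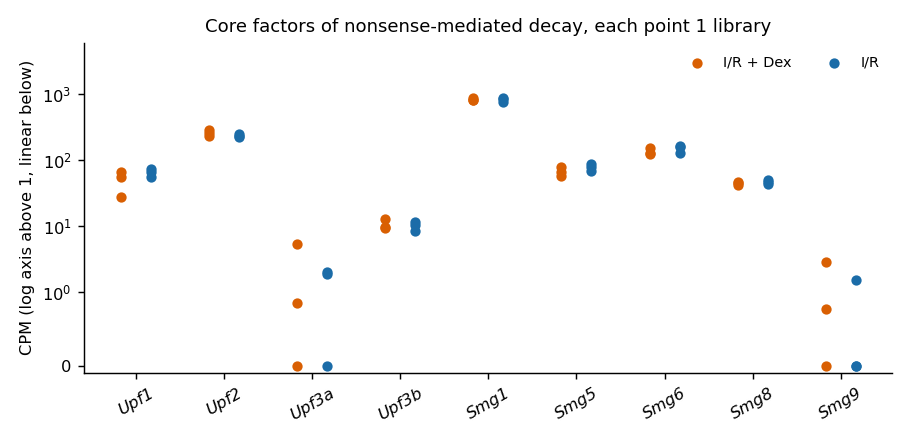
CPM (vertical axis, logarithmic above 1 and linear below) of 9 core factors of NMD, each point 1 library, I/R + Dex left of I/R for each gene. The 2 groups overlap for every gene shown, such as Smg1 at 842 CPM on average in I/R + Dex and 819 in I/R, and Upf1 is low in I/R + Dex library 2.

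Factors around the core gave no call either. In the lists of accessory factors, the exon junction complex, cap binding and termination, and decay enzymes, 46 of 59 genes were tested. Of these 0 were called, against 5 of all 7412 genes tested (0.0675%), so the lists lay near the background. Ruvbl1, an AAA+ ATPase that assists SMG1, had 81.7 ± 10.0 CPM in I/R + Dex and 105 ± 9.61 CPM in I/R (log2 fold change -0.35 ± 0.14 SE, unadjusted p = 0.0415, edgeR). Pabpc4, a poly(A)-binding protein, had 29.3 ± 7.92 CPM in I/R + Dex and 18 ± 2.65 CPM in I/R (0.70 ± 0.27 SE, unadjusted p = 0.0326, edgeR), and its own NMD transcript held 62.2% ± 8.88 of it in I/R + Dex and 62.1% ± 10.5 in I/R. Of 15 genes whose transcripts are known to be held down by NMD, 5 could be tested and 0 were called, against the same 0.0675%. Among them, Atf4, the transcription factor of the integrated stress response, had 39, 758 and 56 counts in I/R + Dex, against 893, 871 and 862 in I/R (log2 fold change -1.40 ± 1.07 SE). In CPM the second I/R + Dex library lay within the I/R range and the other 2 far below it. Without that library Atf4 was called (log2 fold change -4.08, adjusted p = 0.00335, edgeR). Gadd45a, a stress-induced regulator of the cell cycle, had 58, 73 and 92 counts in I/R + Dex and 36, 61 and 73 in I/R (0.56 ± 0.33 SE), with overlap between the groups.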

How the data were processed

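The authors deposited raw counts per transcript and per gene for each library, and a comparison table with FPKM, log2 fold changes and adjusted p-values (p-value columns and log2 columns as named per the file headers); the submitters' processing notes name HISAT2 2.1.0, StringTie 2.2.4, DESeq2 1.30 and GRCm39. The counting step, annotation release and strand setting are not stated in the materials used. The deposited counts were used as they stand and the deposited FPKM values only in alternatives, on the log2(FPKM + 1) and log2(FPKM + 0.1) scales. The members and gene lists were chosen with earlier results of these data known.

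All 6 libraries carry the label batch 1. Library totals of 2333546 to 2941989 counts put the floor of 3 counts at 1.02 to 1.29 CPM; intervals and floors cover counting error only. edgeR 4.0.16 (R 4.3.3) was fitted to all transcripts or genes that passed filterByExpr, with TMM scaling and its quasi-likelihood test, and diffSpliceDGE was used for shares; p-values were adjusted by Benjamini-Hochberg over everything tested. DESeq2 1.42.0 and limma 3.58.1 gave alternatives, and class totals had an exact permutation test (scipy 1.17.1). The scripts were tested on simulated data. Those data held no on and off switching within a group, so they do not show how the share test behaves on such counts. The labels call libraries biological replicates without naming cultures. Transcripts were named by rule: those past 0.05, those with groups apart and the lowest p, those marked by the authors, the highest in count or share, the widest in range, and up to 3 per list; genes overlapping or hosting several of them, and Rbm39, were added after their values were seen. For transcripts named because their groups were apart, that non-overlap is a condition of the choice and not a result. Sequences and models came from GENCODE vM21, matched by identifier and length. A result involving DESeq2 used its adjusted p as given, with NA left out. Single values of a few listed genes are not reported here.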

Additional observations from a re-analysis of the deposited data

How the results depend on the processing

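No NMD transcript passed the edgeR count test, and the count stayed at 0 when each library was left out in turn. It was 2 with no filter on low counts, 7 with DESeq2, and 3 with limma on log2(FPKM + 1) and 3 on log2(FPKM + 0.1). The share test made 4 calls. It made 2 with no filter (1 of them shared with the 4, Creb1), 2 with a mean count of at least 10 (both shared), and 0 with limma diffSplice. Without single libraries it made 2 to 8, the fewest without I/R + Dex library 2 (both shared) and the most without I/R + Dex library 3 (2 shared). Over the 4 share calls, 23 of 44 alternatives ended the call and none reversed it. Gene totals had 0 calls, 1 with DESeq2 and 0 to 1 without single libraries (Gm21988 without I/R library 1). The genes of the NMD machinery and of known NMD-sensitive transcripts had 0 calls and 0 to 1 without single libraries (Atf4, one of the NMD-sensitive genes, without I/R + Dex library 2). The difference in the share of all counts was -0.0325 percentage points and -0.111 to 0.0266 without single libraries, turning positive at 0.0247 and 0.0266, and it was -0.0175 without Ddx5 and Qki, an alternative chosen after the data were seen. The difference in the share of their genes was -0.289 points, -0.849 to 0.153 without single libraries, positive at 0.135 and 0.153, and 0.359 as a median over genes. The cause of these changes was not tested. For 26 other results on named transcripts, 318 of 333 alternatives left the side of the threshold and the direction as they were, 15 passed it where the reported value did not, and none reversed.

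With the replicate number as a block, the share test called 0 of its 4 transcripts, with adjusted p of 0.106 for Son, 0.129 for Creb1 and 0.252 for Washc4. The deviations of same-numbered libraries from their group means correlated at -0.0366, 0.0237 and -0.0266. The labels do not say whether same-numbered libraries were handled together, and these correlations cannot decide it. Low counts are a limit: 319 of 722 transcripts had a mean under 10 counts.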

Other observations

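Other classes of transcript that the annotation expects to be unstable or truncated were few in the comparison table. Rbm33, an RNA-binding protein, has a transcript labelled non-stop decay with 49, 0 and 0 counts in I/R + Dex and 34, 74 and 40 in I/R. Nptn, a neural adhesion protein, has one with 425, 0 and 0 counts in I/R + Dex and 334, 474 and 0 in I/R. Dicer1, the ribonuclease that makes microRNAs, has a transcript labelled protein-coding loss-of-function with 268, 233 and 265 counts in I/R + Dex and 163, 315 and 264 in I/R. All of these were overlapping between the groups, apart from zeros that fell in single libraries, and they were chosen after their values were seen.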
